A study of Mus musculus with 10 samples.

Results

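The 7 genes described here write or read methylation of lysine 36 of histone H3 (H3K36). Nsd1, Nsd2, Nsd3, Ash1l and Setd2 encode methyltransferases of this residue, and Dnmt3a and Dnmt3b encode the de novo DNA methyltransferases that bind the methylated residue. They were taken by symbol from the 41743 gene names of the count tables, all 7 were present, and they were chosen by the measured difference of derived from parental cells, in which Nsd1 RNA was lost. Differences of these 7 genes from parental cells are therefore given as values without a test, and tests of the 7 are limited to comparisons between derived lines.

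Poly-A RNA was sequenced from K7M2, a mouse osteosarcoma cell line labelled as osteoblast-derived, and from 4 stable lines made from it. Parental cells carried unedited ezrin (genotype WT) and no vector. In the 4 derived lines ezrin, a protein that links the plasma membrane to actin, had been knocked out with CRISPR/Cas9 (Ezrin -/-), and each then received an empty vector (mock transfected), wild-type ezrin, ezrin T567A, in which the regulatory threonine is replaced by alanine, or ezrin T567D, in which aspartate takes its place. All 4 carry the same col3 tag in their names, which the labels do not explain, each construct is represented by 1 stable line, and no cells were treated. Each line has 2 libraries, named here by the replicate numbers in their titles. Whether the 2 libraries of a line come from separate cultures is not in the labels, and p-values therefore reflect the spread of library pairs, which may be technical. In bulk RNA, fewer cells that express a gene and less RNA per cell cannot be told apart.

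Methylation of H3K36 is laid down in steps by different enzymes. NSD proteins and ASH1L add the mono- and dimethyl marks, largely between genes and at regulatory regions, whereas SETD2 travels with elongating RNA polymerase II and makes the trimethyl mark over gene bodies. DNMT3A and DNMT3B bind methylated H3K36 through a PWWP domain, with DNMT3A favouring the dimethyl and DNMT3B the trimethyl form. Loss of NSD1 has been studied in overgrowth syndromes and squamous carcinoma, and gain of NSD2 in myeloma. These statements are background and were not measured here.

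The Nsd genes are close relatives, so reads from one could be assigned to another where their transcripts match. The 60 coding bases with the highest summed match of Nsd1 to Nsd2 and to Nsd3, without gaps, lie in the part that encodes the catalytic SET domain. They are shown because they let the reader see how alike the 3 genes are where Nsd1 matches best. Capitals mark bases that are the same in all 3, and each window is joined across an exon boundary (exons 18 and 19 of 23 in Nsd1 and Nsd2, exons 19 and 20 of 24 in Nsd3). The genomic ends, on the plus strand of GRCm38 from GENCODE M21, are chr13:55299952-55301777 for Nsd1, chr5:33885643-33887302 for Nsd2 and chr8:25700712-25706574 for Nsd3.
Nsd1: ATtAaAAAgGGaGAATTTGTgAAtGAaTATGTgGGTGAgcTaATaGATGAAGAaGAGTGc
Nsd2: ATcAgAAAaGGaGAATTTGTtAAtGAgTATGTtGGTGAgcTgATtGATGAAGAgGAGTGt
Nsd3: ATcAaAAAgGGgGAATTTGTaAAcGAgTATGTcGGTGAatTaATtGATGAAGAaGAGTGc
In this window 46 of 60 bases were the same in all 3 genes, and Nsd1 matched Nsd2 at 50 bases and Nsd3 at 51. Over the whole transcripts the longest identical run was 23 bases between Nsd1 and Nsd2, 20 between Nsd1 and Nsd3 and 20 between Nsd2 and Nsd3. Dnmt3a and Dnmt3b shared no run longer than 18 bases. Longer runs joined less related members, 30 bases between Nsd1 and Ash1l and 27 between Dnmt3a and Setd2. Ash1l also shared 25 bases with Dnmt3a and 25 with Setd2.

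Libraries held 14679424 (T567A replicate 2) to 18230763 (T567A replicate 3) counts, and levels are given in CPM, that is counts relative to the TMM-scaled library size. Ezr, the edited gene, was at 164 and 166 CPM in parental, 72.4 and 72.9 CPM in empty-vector libraries and between 182 and 253 CPM in the 3 lines given ezrin back, and RNA from the edited gene and from the vectors cannot be told apart in these counts. Of 10 osteoblast lineage markers 6 reached 1 CPM in a library, with summed levels of 3529 to 5579 CPM. That sum was mostly Col1a2 (2913 to 3528 CPM as line means) and Col1a1 (259 to 1816 CPM), while Sp7, Ibsp and Bglap were at most 0.174 CPM and Dlx5 was at 0 throughout. Endothelial, epithelial and lymphoid markers summed to at most 2.37, 0.501 and 1.28 CPM, while the myeloid list, at 1178 to 1684 CPM, was almost all Csf1r, with Adgre1 at 0. T567A libraries had the highest mitochondrial shares of counts, 1.90% and 1.44% against 0.844% to 1.33% elsewhere. That pair also agreed least, with a chi-square per degree of freedom over genes of 8.45 against 2.44 to 4.35 in the other lines. The fit shares its spread over the lines, so p-values of comparisons with T567A may be too small. The part of these differences in the results below was not tested.

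Nsd1, on chromosome 13 (55209782 to 55318325, plus strand), was present in parental cells and nearly absent from every derived line. Its level was 21.7 and 25.5 CPM (374 and 437 counts) in the 2 parental libraries. It had 0 counts in both empty-vector, both T567A and both T567D libraries, and 2 and 1 counts in the wild-type libraries. No derived library came near the parental range. Taking 3 counts per library as the floor, Nsd1 was at least 138-fold lower in empty-vector, at least 126-fold lower in T567A and at least 135-fold lower in T567D cells. In wild-type cells the ratio of parental to derived level was 273, with a 95% exact binomial counting interval of 93.1 to 1327. This interval covers counting error only and is no test of the contrast, by which the genes were chosen. Over all 8 derived libraries, 3 of 135682442 counts were assigned to Nsd1 against 811 in the parental pair, a ratio of 1075 (counting interval 366 to 5222). Re-expression of ezrin in any of its 3 forms did not go with a return of Nsd1 RNA.

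**Figure D1:**
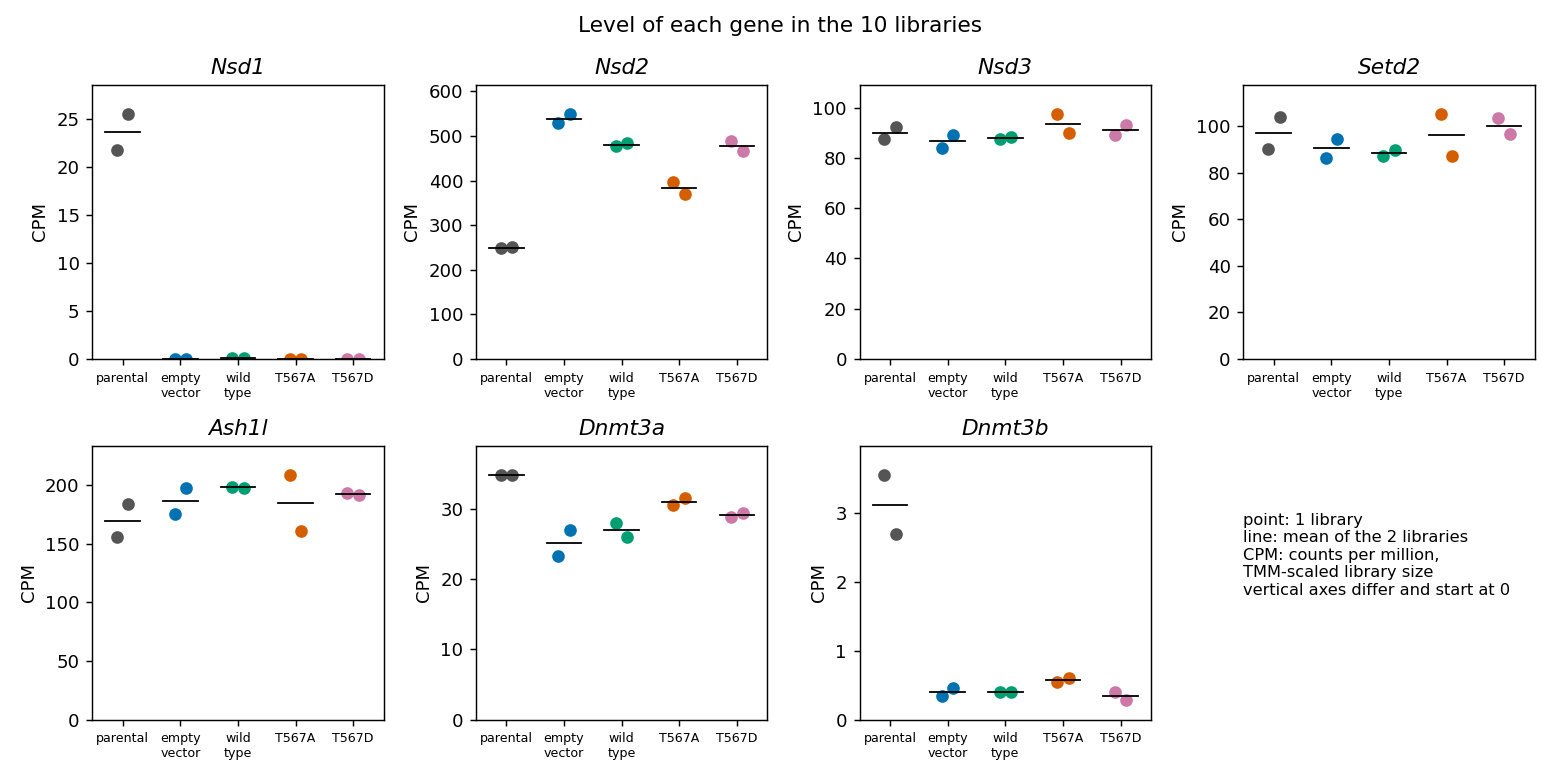
Level of each of the 7 genes (vertical axis, CPM, starting at 0 with a different range in each panel) in the 5 lines; each point is 1 library and each bar the mean of 2. Nsd1 and Dnmt3b stand high only in the 2 parental libraries, Nsd2 is lowest there, and the means of Nsd3, Setd2 and Ash1l differ little between lines.

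RNA of the genes next to Nsd1 was still measured in every derived line. In empty-vector cells none of the 3 nearest tested genes on either side was called lower. Upstream, Tspan17 was at 13.9 ± 1.6 CPM in parental and 13.6 ± 1.35 CPM in empty-vector cells (SD, n = 2). Uimc1 was at 44.1 ± 2.51 and 49.7 ± 1.9 CPM (edgeR adjusted p = 0.056). Zfp346, whose annotated end lies nearest upstream, rose from 26.5 ± 0.0309 to 42 ± 2.23 CPM (adjusted p = 3.8e-07). Downstream, Rab24, a small GTPase gene, rose from 34 ± 2.5 to 39 ± 1.2 CPM (adjusted p = 0.041), Prelid1, a mitochondrial lipid transfer gene, from 432 ± 1.21 to 663 ± 6.46 CPM (adjusted p = 4.6e-08), and Mxd3, a MYC-network repressor gene, from 17 ± 1.49 to 24.1 ± 0.133 CPM (adjusted p = 0.00013). In T567A cells several of these genes stood below parental, Mxd3 at 9.91 ± 0.24 CPM, Zfp346 at 23.0 ± 0.0506 CPM and Tspan17 at 10.6 ± 1.66 CPM, and the other 3 were at 37.5 (Rab24), 42.6 (Uimc1) and 551 CPM (Prelid1). Within 1 Mb of the start of Nsd1, 33 other genes were tested in empty vector minus parental, and 23 rose, 2 fell and 8 were not called, beside 27.4% of all tested genes higher, 27.2% lower and 54.6% called in either direction. Their log2 differences ran from -1.09 to 0.99 with a median of 0.38, close to the median of 0.44 over the 478 tested genes of chromosome 13. A call here and below is an adjusted p under 0.05 (edgeR quasi-likelihood test, two-sided, Benjamini-Hochberg over 12595 tested genes). Against parental, the same 33 genes had 21 higher and 2 lower with wild-type ezrin (median 0.29, 56.2% of all genes called), 8 higher and 9 lower with T567A (median 0.07, 62.1% of all genes called) and 22 higher and none lower with T567D (median 0.36, 55.4% of all genes called). The lowest log2 difference among them in any of the 4 lines was -1.14, in T567A cells. The cause of the loss of Nsd1 RNA was not tested.

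Nsd2, on chromosome 5 (33820725 to 33897975, plus strand), was the most abundant of the 7 per length in every line and was higher in all derived lines than in parental cells. It stood at 249 and 251 CPM in parental libraries and at 529.8 and 549 CPM in those with empty vector. Wild-type libraries had 477 and 485 CPM, T567A libraries 397 and 371 CPM and T567D libraries 489.7 and 467 CPM. The parental pair lay below all others, the T567A pair came next, and the empty-vector pair was the highest. The share of all genes that separate in this way was not counted, and 54.6% to 62.1% were called against parental. Relative to parental cells the mean was 2.16 times as high with empty vector, 1.93 with wild-type ezrin, 1.54 with T567A and 1.92 with T567D. The fitted log2 differences were 1.11, 0.94, 0.62 and 0.94, each with an SE of 0.059.

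Unlike Nsd1, Nsd2 did not stand apart from its neighbours. Of the 25 other tested genes within 1 Mb of its start, 24 rose in empty-vector cells, 1 was not called and none fell. Over all tested genes 27.4% were higher and 27.2% lower. The log2 differences of the 25 genes ran from 0.79 to 2.46 with a median of 1.19, beside 1.11 for Nsd2. Letm1, a mitochondrial ion exchanger gene just upstream, went from 101 to 174 CPM (0.79 ± 0.063). Nelfa, which overlaps the 3′ end of Nsd2 on the opposite strand, went from 50.2 ± 0.934 to 112 ± 1.08 CPM (1.16 ± 0.067), and Htt, the huntingtin gene, from 51.9 ± 1.99 to 119 ± 11.0 CPM (1.19 ± 0.072). The 60 exonic bases that Nsd2 and Nelfa share are 0.357% of the 16803 exonic bases of Nsd2. Against parental, the same 25 genes had a median of 1.15 with wild-type ezrin (24 called higher), 0.96 with T567A (24 called higher) and 1.14 with T567D (25 called higher), beside 0.94, 0.62 and 0.94 for Nsd2. Over all tested genes 56.2%, 62.1% and 55.4% were called in these comparisons, in either direction.

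The stretch of higher expression reached far beyond Nsd2. Over the first 50 Mb of chromosome 5, leaving out Nsd2, 216 genes were tested and 186 of them (86.1%) rose in empty-vector cells, with a median log2 difference of 1.07 and quartiles of 0.79 and 1.31. Over the rest of the chromosome 141 of 589 (23.9%) rose, 117 fell, and the median was 0.02. The first stretch had medians of 1.00, 0.88 and 0.99 in wild-type, T567A and T567D cells, and the rest had medians between -0.07 and 0.00. The boundary of 50 Mb and the windows around the genes were chosen after seeing the values. The cause of this regional difference was not tested.

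**Figure D2:**
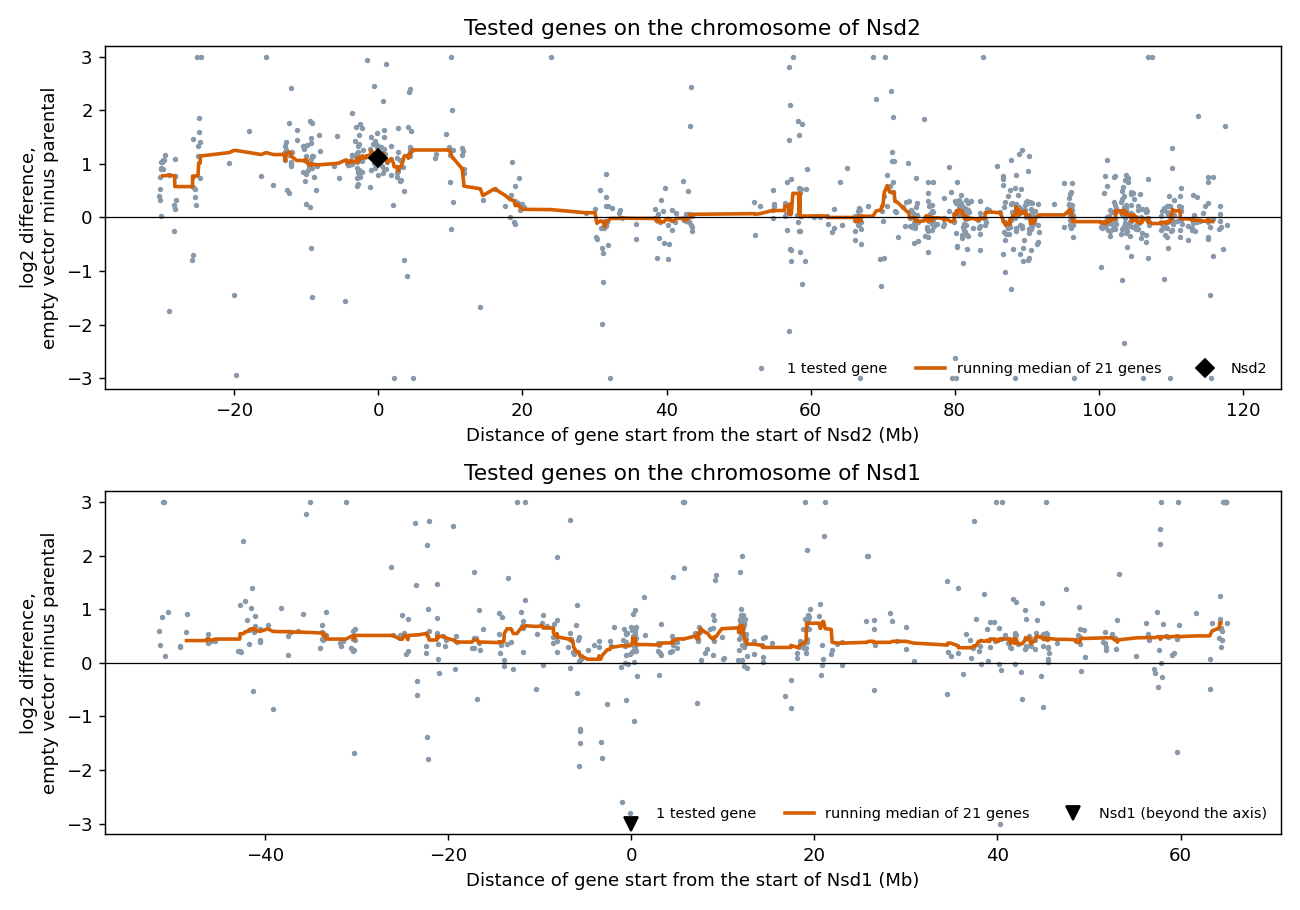
Log2 difference of empty vector minus parental (vertical axis) for every tested gene on the chromosome of Nsd2 (top) and of Nsd1 (bottom) against the distance of its start from that gene (horizontal axis, Mb); points beyond 3 in either direction are drawn at 3, and the line is the running median of 21 genes. Nsd2 sits on a plateau near 1 that ends within 20 Mb downstream, whereas Nsd1 lies far below neighbours whose median is 0.38.

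Nsd3, on chromosome 8 (25601601 to 25719667, plus strand), the remaining NSD gene, ran from 84.0 to 97.4 CPM over the 10 libraries. Its means were 89.8 ± 3.29 CPM in parental and 86.6 ± 3.55 CPM in empty-vector cells, 87.8 ± 0.644 CPM with wild-type ezrin, 93.7 ± 5.23 CPM with T567A and 91.2 ± 2.90 CPM with T567D. The parental range overlapped that of every derived pair, while the T567A and T567D pairs lay just above the empty-vector and wild-type pairs. The 4 log2 differences from parental ran from -0.05 to 0.06, each with an SE of 0.067. The 22 other tested genes within 1 Mb had a median of 0.03 in empty vector minus parental, with 5 higher and 6 lower. Over all tested genes 27.4% were higher and 27.2% lower.

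On the RPKM scale, which divides by gene length and so allows genes to be compared, the order was Nsd2, Ash1l, Setd2, Nsd3 and Dnmt3a in every line. Nsd1 came sixth and Dnmt3b last in parental cells, and the reverse held in the derived lines. In parental cells the means were 13.6 RPKM for Nsd2, 10.4 for Ash1l, 8.22 for Setd2, 4.96 for Nsd3, 1.90 for Dnmt3a, 1.23 for Nsd1 and 0.556 for Dnmt3b. Nsd1 thus held only 6.23% ± 0.585 of the summed RPKM of the 3 NSD genes before it was lost, and Nsd2 held 68.7% ± 1.03. The sum of the 3 was larger in every derived line than in parental cells. It was 19.7 ± 0.383 RPKM in parental and 35 ± 0.965 RPKM in empty-vector cells, 32.0 ± 0.328 RPKM with wild-type ezrin, 26.3 ± 1.11 RPKM with T567A and 32.1 ± 0.808 RPKM with T567D. Nsd2 then made up between 80.1% (T567A) and 86.0% (empty vector) of it. With Ash1l, the fourth dimethylating enzyme gene, the sum went from 30.1 ± 1.61 RPKM in parental to between 37.8 ± 3.12 (T567A) and 46.8 ± 1.98 (empty vector). RNA per length is not enzyme activity, and neither protein nor the histone mark was measured in these files.

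**Figure D3:**
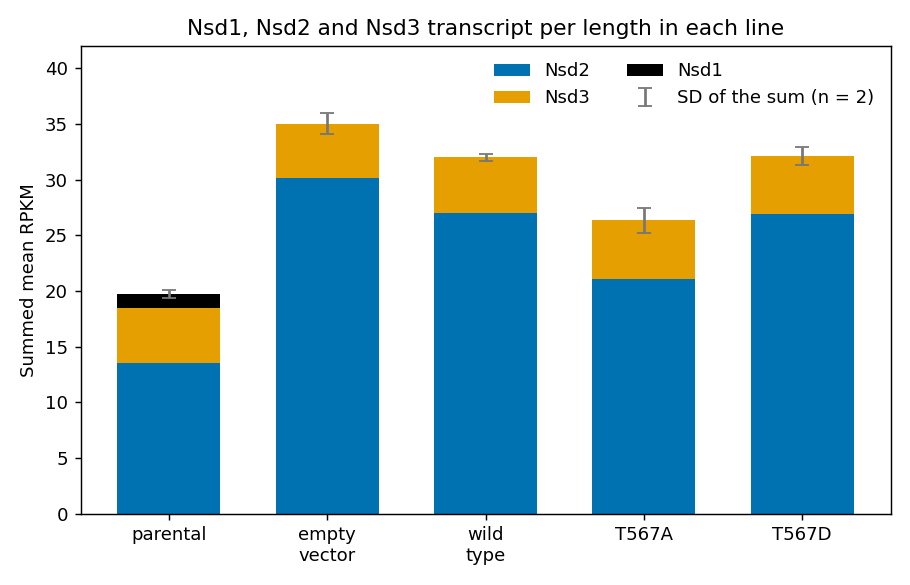
Mean RPKM of Nsd2, Nsd3 and Nsd1 stacked for each line (vertical axis, RPKM from 0), with the SD of the sum over 2 libraries. The black segment of Nsd1 is visible in parental cells only, and the totals of the derived lines, 26.3 to 35 RPKM, lie above the parental 19.7 RPKM.

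Ash1l, on chromosome 3 (88950622 to 89079375, plus strand), was measured at 155 and 183 CPM in parental, 175 and 198 CPM in empty-vector and 198 and 198 CPM in wild-type libraries. The T567A pair was at 208 and 161 CPM and the T567D pair at 193 and 192 CPM. Parental libraries overlapped those of the empty-vector and T567A lines, and the T567A pair was the widest of the 5. Log2 differences from parental ran from 0.12 to 0.23 with SEs of 0.113. Ash1l shares 352 exonic bases (2.37%) with Dap3 on the opposite strand, which was at 117 to 133 CPM across the lines.

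Setd2, on chromosome 9 (110532597 to 110618633, plus strand), the trimethylating enzyme gene, was at 90.3 and 104 CPM in parental, 86.2 and 94.6 CPM in empty-vector and 87.0 and 89.7 CPM in wild-type libraries. The T567A pair was at 105 and 87.0 CPM and the T567D pair at 103 and 96.4 CPM. The parental range overlapped that of the empty-vector, T567A and T567D pairs and lay above the wild-type pair. Its log2 differences from parental ran from -0.13 to 0.04 (SE 0.085). The 19 other tested genes within 1 Mb of Setd2 had a median of -0.39 in empty vector minus parental, with 12 lower and 3 higher. Over all tested genes 27.2% were lower and 27.4% higher, and chromosome 9 as a whole had a median of -0.27.

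Dnmt3a, on chromosome 12 (3806007 to 3914443, plus strand), was highest in parental cells. It was at 34.8 and 34.8 CPM there, 23.3 and 27 CPM with empty vector and 28.0 and 26.0 CPM with wild-type ezrin. The T567A pair was at 30.5 and 31.5 CPM and the T567D pair at 28.9 and 29.4 CPM. All 8 derived libraries lay below both parental ones, and the T567A pair lay above the other derived pairs. Such separation was not counted over all genes, of which 54.6% to 62.1% were called against parental. The means were 0.723 of the parental level with empty vector, 0.776 with wild-type ezrin, 0.891 with T567A and 0.838 with T567D, or log2 differences of -0.47, -0.37, -0.17 and -0.25. The 12 other tested genes within 1 Mb had a median of 0.12 in empty vector minus parental, with 5 higher and 2 lower. This is beside 27.4% higher and 27.2% lower over all tested genes.

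Dnmt3b, on chromosome 2 (153649450 to 153687730, plus strand), had few reads and was again highest in parental cells. Parental libraries held 61 and 46 counts (3.55 and 2.68 CPM) and derived libraries 5 to 11 counts (0.292 to 0.612 CPM), so the groups did not overlap. How many of all genes separate like this was not counted, and 54.6% to 62.1% of them were called against parental. The parental level was 7.78 times that of empty-vector cells (95% exact counting interval 4.44 to 14.7), 7.72 times that of wild-type (4.41 to 14.6), 5.32 times that of T567A (3.25 to 9.18) and 8.94 times that of T567D cells (4.91 to 17.8). These intervals cover counting error only, leave out the spread between libraries and are no test of the contrast, by which the genes were chosen. The fitted log2 differences were -2.94, -2.93, -2.40 and -3.13. Its neighbours did not go down as a group. Of 24 other tested genes within 1 Mb, 12 were higher in empty vector minus parental, 1 was lower and 11 were not called. Their median was 0.33 and their lowest log2 difference -2.16, and 54.6% of all genes were called. Against parental, 10 were higher and 4 lower with wild-type ezrin (median 0.2, 56.2% of all genes called). With T567A 11 were higher and 2 lower (0.23, 62.1%), and with T567D 12 were higher and 3 lower (0.33, 55.4%). Antisense transcripts named for both genes, Dnmt3aos and Dnmt3bos, had 0 counts in every library.

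The 250 bases before the RefSeq start of Dnmt3b (GRCm38.p6, chr2:153649199-153649448, plus strand) are shown because Dnmt3b had the lowest ratio to parental of the 6 members other than Nsd1, and CpG is the site at which DNA methyltransferases act. Capitals mark each CpG.
Dnmt3b: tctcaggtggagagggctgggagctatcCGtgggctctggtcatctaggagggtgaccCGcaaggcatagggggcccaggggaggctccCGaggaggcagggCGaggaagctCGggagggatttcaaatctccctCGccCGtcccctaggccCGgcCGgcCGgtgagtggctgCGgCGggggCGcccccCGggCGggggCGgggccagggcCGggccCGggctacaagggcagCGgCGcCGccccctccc
This stretch held 21 CpG, searched as the letters CG, which read the same on both strands, and 16.3% of 32851 promoter stretches of the same length held at least as many. Setd2, for which the same table has an entry, had 31, the 3 entries of Dnmt3a had 38, 40 and 15, and the median over all stretches was 6. DNA methylation was not measured, and the count describes the sequence only.

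All 7 genes passed the filter on low counts, Nsd1 and Dnmt3b through the parental libraries: Nsd1 had fewer than 10 counts in all 8 derived libraries and Dnmt3b in all but 1.

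Among the 4 derived lines, where the loss of Nsd1 is common to all, Nsd2 and Dnmt3a differed and the other genes were not called. Over all genes 54.2% were called in the joint test of the 4 lines, beside 2 of these 7. The 7 include Nsd1 and Dnmt3b, which passed the filter through the parental libraries and had few counts in derived ones. They could hardly be called here, so no conclusion is drawn from the share of members called. Nsd2 had an adjusted p of 5.3e-06 and Dnmt3a of 0.028. Setd2 (0.25), Nsd3 (0.41), Dnmt3b (0.56) and Ash1l (0.82) did not pass. Nsd1, at 0 to 2 counts per library, could not be compared between derived lines.

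Nsd2 was lower with ezrin T567A than in each other derived line. It fell by 0.32 on the log2 scale against wild-type ezrin (SE 0.058, edgeR adjusted p = 0.00014, background 39.6%) and by 0.32 against T567D (SE 0.058, adjusted p = 0.00015, background 44.1%). Against empty vector it fell by 0.49 (SE 0.058, adjusted p = 6.3e-07, background 46.4%). Both T567A libraries lay below all 6 other derived libraries. These 3 calls held in all 19 other analysis settings, with a highest adjusted p of 0.0038 against wild type. The 25 neighbours of Nsd2 within 1 Mb had a median of -0.20 in T567A minus wild type, with 12 lower, 1 higher and 12 not called. The part of this regional difference, and of the higher mitochondrial share of the T567A libraries, in the Nsd2 value was not tested.

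The other derived pairs differed less in Nsd2. T567D minus empty vector was -0.17 ± 0.058 (SE, edgeR adjusted p = 0.042, background 17.8%), a call that held in 4 of 19 other settings and was lost when any 1 library of the parental, empty-vector, wild-type or T567D lines was left out, with adjusted p up to 0.24. Wild type minus empty vector was -0.17 ± 0.058 (adjusted p = 0.055, background 15.6%), and passed in 3 of 19 other settings: with only these 2 lines and without either T567A library. In the reported fit 0 of the 7 genes were called in this pair by edgeR, and 0 by DESeq2 or limma. Of the 6 genes other than Nsd1, 1 had an unadjusted p under 0.05 in that pair, Nsd2. T567D minus wild type was -0.01 (adjusted p = 0.99, background 1.34%). In that pair 0 of the 7 were called by the same 3 tools, and 0 of the 6 other than Nsd1 had an unadjusted p under 0.05.

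Dnmt3a rose in T567A cells against empty vector, from 25.2 ± 2.55 to 31.0 ± 0.659 CPM (log2 difference 0.30 ± 0.087, edgeR adjusted p = 0.0073, background 46.4%). This call held in 16 of 19 other settings and depended on both the method and 1 library. It was lost with both limma fits (adjusted p = 0.067 on log2(RPKM + 1)) and without empty-vector replicate 2. Without that library, the lowest at 23.3 CPM, the difference was 0.19. In the joint test of the 4 lines Dnmt3a passed in 11 of 18 other settings, and failed without empty-vector replicate 2 (0.20), wild-type replicate 3 (0.059), T567A replicate 3 (0.056) or T567D replicate 3 (0.051), with DESeq2 (0.12) and with both limma fits (0.18 and 0.20). Against wild type the difference was 0.20 (adjusted p = 0.071). T567D minus empty vector was 0.21 (adjusted p = 0.099).

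Nsd3 differed by 0.02 to 0.11 log2 units between derived lines (SE 0.067, adjusted p from 0.178 to 0.875 over 6 pairs). Ash1l ranged from -0.10 to 0.09 (SE at most 0.113, adjusted p from 0.497 to 0.949). Setd2 ranged from -0.06 to 0.18 (SE at most 0.086, adjusted p from 0.271 to 0.841). Ash1l and Setd2 depended on which T567A library was kept. Without T567A replicate 2, Ash1l was called lower against wild type (-0.30, adjusted p = 0.013). Without T567A replicate 3, Setd2 was called higher (0.24, adjusted p = 0.022). Dnmt3b, at 5 to 11 counts a library, ranged from -0.21 to 0.74 with SEs of 0.479 to 0.529, so a 1.5-fold difference was not detectable at this depth.

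**Figure D4:**
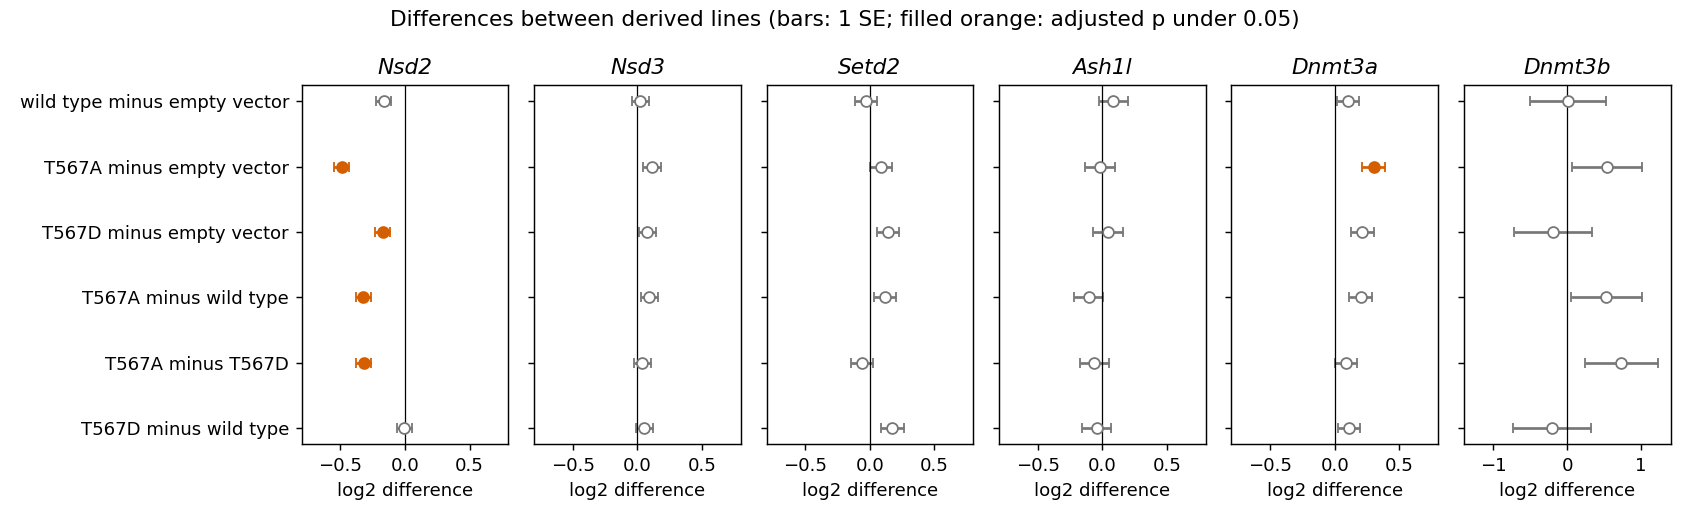
Log2 difference (horizontal axis, wider range for Dnmt3b) between each pair of derived lines for 6 genes, with bars of 1 SE; filled orange points had an adjusted p under 0.05. All called points belong to Nsd2, in 4 pairs, and to Dnmt3a, in 1 pair; Nsd1 is left out because it had at most 2 counts in any derived library.

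The genes whose levels ran most like those of Nsd1 over the 10 libraries, by Pearson correlation of log2 CPM, were Avil (r = 0.998), Lncpint (0.996) and Elf4 (0.996). Avil, an actin-binding protein gene, went from 127 ± 0.848 CPM in parental to 6.65 to 9.26 CPM in the derived lines. Lncpint, a long noncoding RNA, went from 46.0 ± 4.90 to between 0.988 and 1.21 CPM, and Elf4, an ETS-family factor gene, from 67.1 ± 0.270 to between 31.0 and 33.2 CPM. Nsd2 ran most like Ssx2ip (0.998), Gatad1 (0.997) and Ctsl (0.997), and Ssx2ip stood at 45.7 CPM in parental, 103 in empty-vector and 70.2 in T567A cells. Gatad1 lies in the first 50 Mb of chromosome 5, the stretch with higher expression that also holds Nsd2. Dnmt3b ran most like Ccnd1, Aifm1 and Parp1 (each 0.992), and Parp1 stood at 236 ± 7.96 CPM in parental and 140 to 161 CPM in derived cells. These correlations describe 10 libraries that mostly separate parental from derived, share their scaling and come with no test.

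Genes of 8 related lists, which hold none of the 7, were tested in the same fit. In empty vector minus parental 91 of 96 listed genes passed the filter, and 11 rose, 36 fell and 44 were not called, with a median log2 difference of -0.11. That is 51.65% called beside the 54.6% background, and calls over all genes divided almost evenly, 3448 higher and 3431 lower. The same background, 27.4% higher and 27.2% lower, stands beside each list below, and no list was tested as a set. Lower calls outnumbered higher ones among the listed genes in each of 19 other settings, with 10 higher and 28 lower under DESeq2. Those settings reuse the same 10 libraries, so their agreement is not separate support. The lists were also chosen with earlier results of these data known, and no conclusion is drawn from the uneven split.

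Among 6 other H3K36 methyltransferase genes, 1 rose, 3 fell and 2 were not called (median -0.22). Prdm9, a meiotic methyltransferase gene, rose from 1.72 to 3.23 CPM (0.91 ± 0.267, adjusted p = 0.0066), and Setmar fell from 1.28 to 0.658 CPM (-0.95 ± 0.379, adjusted p = 0.038). Setd5 fell from 128 to 98.3 CPM (-0.38 ± 0.071, adjusted p = 0.00011). Of 9 H3K36 demethylase genes 1 rose, 3 fell and 5 were not called (median -0.12). Kdm2b, a demethylase gene that also recruits Polycomb to CpG islands, fell from 59.2 to 37.1 CPM (-0.67 ± 0.075, adjusted p = 1.3e-07), and was lower again in T567A than in wild-type cells, 25.1 against 35.3 CPM (adjusted p = 7.1e-05). Kdm4a rose from 85.4 to 102 CPM (adjusted p = 0.0042).

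Readers of H3K36 methylation, 18 tested of 19, divided into 3 higher, 5 lower and 10 not called (median -0.08). Phf1, a Polycomb-associated Tudor protein gene, rose from 14.1 to 30.2 CPM (1.10 ± 0.109, adjusted p = 2.1e-08). Msl3, of the MSL acetyltransferase complex, fell from 58.9 to 35.4 CPM (-0.73 ± 0.085, adjusted p = 2.5e-07). In T567A minus wild type 6 of the 18 readers fell, none rose and 12 were not called, where 39.6% of all tested genes were called. Those that fell included Pwwp2b, from 24.0 to 15.7 CPM (adjusted p = 3.3e-05) and Phf19, from 44.3 to 33.5 CPM (adjusted p = 0.00023). Of 11 genes for Setd2 cofactors and transcription elongation, 2 rose, 3 fell and 6 were not called (median -0.02). Wdr61, a subunit gene of the PAF complex, fell from 93.2 to 57.3 CPM (-0.70 ± 0.069, adjusted p = 2e-08), and Supt6, a Setd2-linked elongation factor gene, rose from 138 to 167 CPM (adjusted p = 0.0018).

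Genes that maintain or remove DNA methylation, 10 tested of 13, had 5 lower, none higher and 5 not called (median -0.16). Over all tested genes 54.6% were called in this comparison, 27.2% of them all as lower. Dnmt1, the maintenance methyltransferase gene, fell from 400.2 to 301 CPM (-0.41 ± 0.063, adjusted p = 1.1e-05). Its partner Uhrf1 fell from 434 to 375 CPM (-0.21 ± 0.057, adjusted p = 0.0034). Both were lower still in T567A than in wild-type cells, Dnmt1 at 230.0 against 295 CPM (adjusted p = 0.00013) and Uhrf1 at 261 against 308 CPM (adjusted p = 0.0027). Dnmt1 and Uhrf1 thus lay below the parental level in the derived lines, as did Dnmt3a and Dnmt3b, but in T567A cells Dnmt1 was at its lowest while Dnmt3a was nearest to parental.

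Polycomb repressive complex 2 and H3K27 demethylase genes, 11 tested of 12, had 6 lower, none higher and 5 not called, and the lowest median of the 8 lists (-0.30). The share called was near the 54.6% over all tested genes, of which 27.2% were lower and 27.4% higher. Rbbp7, a histone-binding subunit gene, fell from 359 to 205 CPM (-0.81 ± 0.059, adjusted p = 1.8e-10). Jarid2 fell from 11.1 to 7.87 CPM (adjusted p = 0.0024) and Ezh1 from 21.5 to 15.2 CPM (adjusted p = 0.00019), but both stood near the parental level in wild-type cells, at 10.9 and 23.3 CPM. Ezh1 was at 23.1 CPM with T567A but at 16.9 CPM with T567D, and Jarid2 at 14.05 and 10.3 CPM. Of 17 other lysine methyltransferase genes 4 rose, 7 fell and 6 were not called (median 0.02). Ehmt1, an H3K9 methyltransferase gene, had the largest fall of all 91 listed genes, from 124 ± 3.2 to 39.97 ± 4.41 CPM (-1.63 ± 0.077, adjusted p = 1.6e-13), and stood at 38.9 to 40.2 CPM in all 4 derived lines. Suv39h1, also for H3K9, fell from 122 to 67.3 CPM (adjusted p = 1.6e-09), and Kmt2c, for H3K4, rose from 23.8 to 46.0 CPM (0.95 ± 0.115, adjusted p = 2.2e-06). Kmt2c also lies in the first 50 Mb of chromosome 5, where the median difference was 1.07.

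In T567A minus wild type 9 of these 17 methyltransferase genes fell, 2 rose and 6 were not called, where 39.6% of all tested genes were called in either direction. Kmt2d, the close relative of Kmt2c, fell from 128 to 76.6 CPM (-0.74 ± 0.099, adjusted p = 2.7e-05), and Setdb2 rose from 18.8 to 27.3 CPM (adjusted p = 0.00016). Of 9 genes for histone H3.3 and its chaperones, none rose, 4 fell and 5 were not called in empty vector minus parental (median -0.04). Atrx, a chromatin remodeller gene, fell from 126 to 75.4 CPM (-0.74 ± 0.096, adjusted p = 6.3e-06). Its partner Daxx was at 48.5 and 48.3 CPM (adjusted p = 0.96) and differed in T567A alone among derived means, at 80.9 against 47.5 to 48.3 CPM elsewhere (T567A minus wild type 0.75 ± 0.07, adjusted p = 3e-08).

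**Figure D5:**
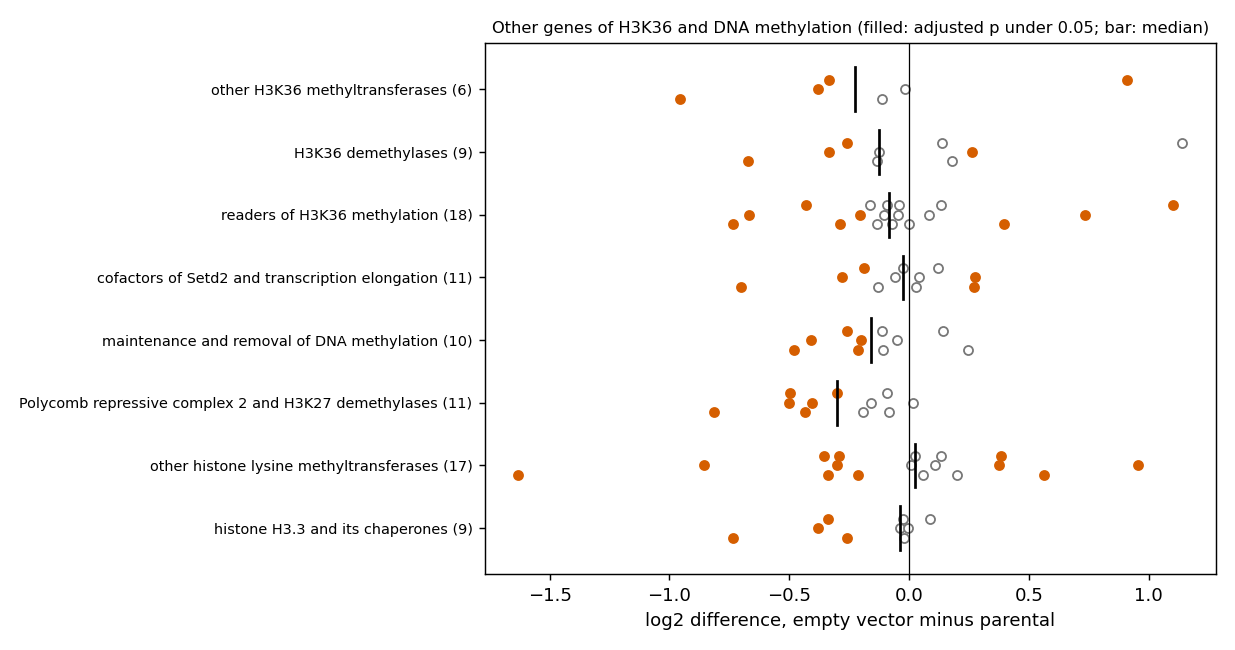
Log2 difference of empty vector minus parental (horizontal axis) for each tested gene of the 8 related lists, with filled points for an adjusted p under 0.05 and a bar at the list's median; numbers in brackets are genes tested. Filled points left of 0 outnumber those to the right in every list, 36 against 11 in all, and Ehmt1 is the point farthest to the left.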

How the data were processed

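The 10 libraries were prepared from poly-A RNA with dUTP strand marking and sequenced on a DNBSEQ platform, per the labels' protocols. For each library the authors deposited raw counts per gene name and RPKM values, the counts divided by gene length and depth. The build was GRCm38, per the submitters' processing notes (aligner, counting tool, annotation release and use of strand: not given in the sources used here), and overlapping genes are uncertain. The test was edgeR 4.0.16, run on the counts under R 4.3.3 (limma 3.58.1 and DESeq2 1.42.0 for alternatives): filterByExpr (minimum count 10, total 15) left 12595 genes, and 1 robust quasi-likelihood fit with TMM scaling held 5 line means and 5 residual degrees of freedom. SEs come from log2 differences and F statistics. Floors (3 counts, 0.167 to 0.207 CPM) and intervals cover counting error only. Positions come from GENCODE M21, matched by symbol for 40523 of 41743 names, and promoters from RefSeq.

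The 7 genes and the lists were chosen with earlier results of these data known. Named list genes are up to 3 per list with the largest difference in empty vector minus parental and up to 3 with the largest range among derived lines, called and reaching 1 CPM; a selection of them is printed. Neighbours are the 3 tested genes on each side of Nsd1, and those within 1 Mb. Similar genes are the 3 with the highest correlation, at 10 CPM or more, of log2 CPM with a prior count of 2. Letm1, Nelfa and Htt were named after their values were seen. Shared replicate numbers were checked: deviations of same-numbered libraries correlated between -0.0995 and -0.00742 in 4 pairs of lines, and no label ties a number to a day or batch, so they were not treated as pairs. Figures were drawn with matplotlib 3.10.9.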

Additional observations from a re-analysis of the deposited data

How the results depend on the processing

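The 19 other settings were RLE and upper-quartile scaling, DESeq2, no filter, 5 CPM in 2 libraries, a replicate block, limma on log2(RPKM + 1) and log2(RPKM + 0.1), only the 2 lines compared, and each library left out. No called difference reversed direction. Genes called in wild type minus empty vector, 1966, were 1082 with the replicate block, 1294 with DESeq2, 2955 with only the 2 lines and 853 (without empty-vector replicate 2) to 2515 with a library left out. T567A minus wild type, 4983, ranged from 3314 (without wild-type replicate 1) to 5006 with a library left out. T567D minus wild type, 169, gave 300 without a filter, 89 and 63 with limma, and 47 (without wild-type replicate 3) to 302 (without T567A replicate 2) with a library left out. T567D minus empty vector, 2239, gave 1142 with the block, 1415 with DESeq2 and 1014 (without empty-vector replicate 2) to 2807 with a library left out. Of the 7 genes, the 2 called among derived lines were 1 with DESeq2, 1 with each limma fit and 1 to 3 with a library left out. In wild type minus empty vector the count of 0 became 1 with only the 2 lines and 0 to 1 with a library left out; in T567A minus wild type and minus T567D, 1 became 1 to 2; in T567A minus empty vector, 2 became 1 with each limma fit and 1 to 3. In T567D minus empty vector, 1 became 0 under both scalings, both filters, the replicate block and both limma fits, and 0 to 1 with a library left out. The causes were not tested. With the replicate block no other count of called members moved.

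With 2 libraries a line, Nsd1 and Dnmt3b are limited by depth in the derived lines, and 1 stable line per construct means that line and construct cannot be told apart. Between parental and derived cells the knockout, the vector and the making of stable lines all differ together, and these cannot be told apart either. A pair with 1 library left is assumed to vary like the other lines.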
